A study of Arabidopsis thaliana with 9 samples.

Results

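The floral MADS-box genes considered here are 10 genes of Arabidopsis thaliana that act in or directly below the switch to flower formation: APETALA1 (AP1, AT1G69120), CAULIFLOWER (CAL, AT1G26310), FRUITFULL (FUL, AT5G60910), SEPALLATA1 to SEPALLATA4 (SEP1 AT5G15800, SEP2 AT3G02310, SEP3 AT1G24260 and SEP4 AT2G03710), AGAMOUS (AG, AT4G18960), APETALA3 (AP3, AT3G54340) and PISTILLATA (PI, AT5G20240). They were named by their role in flowers, and make up 10 of 27444 protein-coding genes on the 5 chromosomes. For each gene the question was whether LEAFY (LFY) was bound there: a peak was assigned to a gene when its summit, the position of highest enrichment, lay in the gene or within 3 kb upstream of its start. All 10 genes matched the RefSeq annotation of TAIR10.1 by locus, FUL under the symbol AGL8.

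Binding was measured in callus of the accession Landsberg erecta by ChIP-seq, in which anti-LFY antibodies pull down chromatin whose DNA is then sequenced. Roots of seedlings aged 3 weeks were kept for 5 days on callus inducing medium (CIM) and received 5 µM dexamethasone (dex) or mock solution in the last hour, that is for 1 h by the sample labels. The text describing the series gives 24 h instead. The 9 libraries formed groups of 3 dex ChIP, 3 mock ChIP and 3 input libraries. All groups, the mock libraries included, carried 35S:LFY-GR in an otherwise wild-type background. This transgene joins LFY to the steroid-binding part of the glucocorticoid receptor, which keeps the fusion out of the nucleus until dex is given. It is driven by a viral promoter active in nearly all cells, so the fusion was present at sites and levels that differ from those of LFY in a flower. Each ChIP replicate was itself a pool of several ChIP reactions. The callus was grown from roots, and its cell type could not be checked because a peak list holds no expression values.

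The deposited list held 1181 peaks, of which 1177 lay on the nuclear chromosomes. The study pooled the 3 dex libraries as treatment and the 3 mock libraries as control before calling, so no value below has an error between replicates, and the depth of single libraries is unknown. Read numbers at every summit were recovered from the deposited fold and p-value (the caller multiplied dex reads by 0.788 to match the mock depth), and every interval below covers counting error in the pools only. A nuclear summit had a median of 114 dex reads, a median fold of 4.04 and a median width of 357 bp. The caller's mock background never fell below 17.97 reads per window of 138 bp, its genome-wide floor.

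LFY is a helix-turn-helix transcription factor that marks young primordia as flowers. In textbook accounts it acts through MADS-box genes: AP1 and CAL commit the primordium to floral fate, AP3 and PI specify petals and stamens, AG specifies stamens and carpels and ends the floral meristem, and the SEP proteins join the others in the complexes that set organ identity. FUL, the closest relative of AP1 and CAL, acts in the inflorescence meristem and in the fruit. LFY can bind as a dimer or as a monomer, and its binding sequence is a palindrome with the core CCANTGG.

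The sequences on which the comparison of AP1 with the other genes rests are the exact matches to this core in each gene and its 3 kb upstream. There were 11 in all, and CAL had none. They are shown 5′ to 3′ on the strand of the gene, from the RefSeq sequence of TAIR10.1 (accession Columbia), with 6 bases on each side and the core in capitals.
AP1, 169 bp upstream of the start: gaaggaCCAGTGGtccgta
AG, in the second intron: tttaatCCAATGGttacaa
FUL, in the first intron: taatccCCAATGGacaata
FUL, upstream: ccaaatCCAATGGgtctaa
SEP3, upstream: tcacgcCCAATGGaccaca
PI, upstream: taaacaCCACTGGaccaca
SEP1, upstream, nearer copy: atcggtCCATTGGtaatgg
SEP1, upstream, farther copy: caatctCCAATGGattaca
SEP2, upstream: tttcccCCAATGGtcattt
AP3, upstream: tctcgtCCAGTGGaactca
SEP4, upstream: aaaaatCCAATGGaggaga
In the AP1 site the palindrome runs on past the core, since the gga before it is mirrored by the tcc after it. On the strand shown, the AG site has a middle base A, as have 7 of the 11 cores. The other strand has a T there, so this count depends on the strand.

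LFY peaks were found at AP1 and at none of the other 9 genes. AP1 had 2 summits, one just upstream of its start and one in its first intron. Thus 1 of 10 genes carried an assigned summit, a share read against 4.32% of all protein-coding genes. The count of genes with 2 or more summits was also 1 of 10, against 0.543% of protein-coding genes. AP3 and PI had summits within 3 kb past their end, that is 2 of 10 against 2.67% of protein-coding genes. These counts are small, and no test was made on them.

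**Figure D1:**
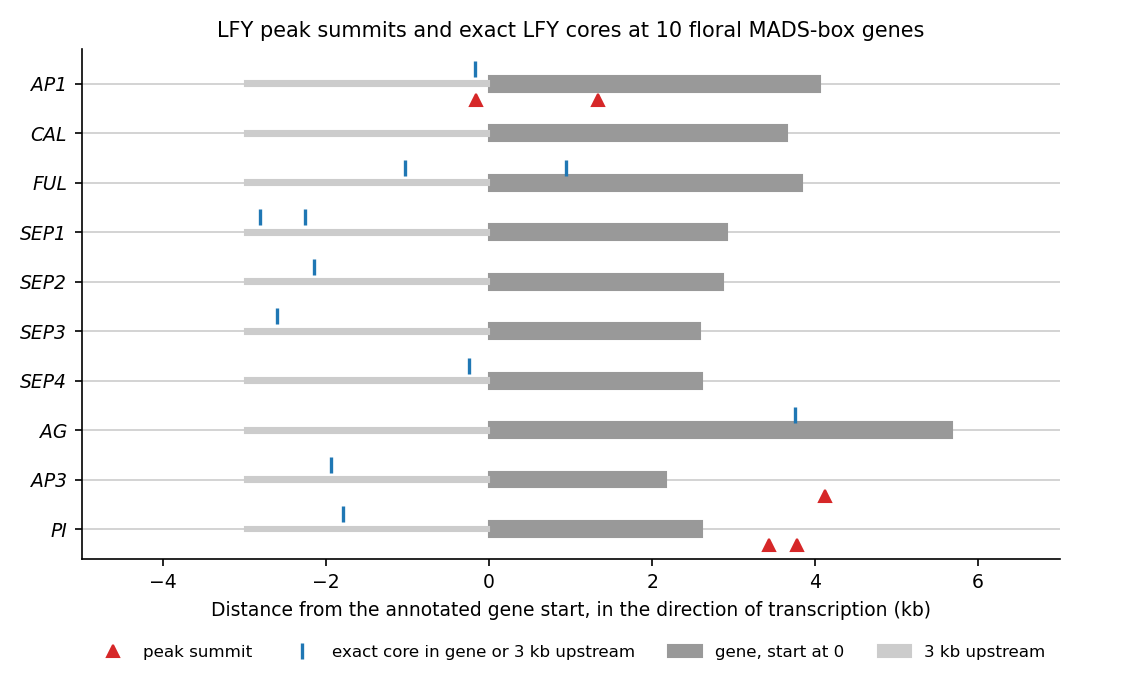
Each row is 1 of the 10 genes, aligned at its annotated start (x axis, distance in kb in the direction of transcription). Dark bars are the genes, light bars the 3 kb upstream, blue ticks the 11 exact cores and red triangles the peak summits from 5 kb before to 7 kb after the start: AP1 has a summit beside its core and another in the gene, the summits of AP3 and PI lie past the gene end, and the other 7 genes have none in view.

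AP1 lies on the minus strand at chr1:25982294-25986349. Its promoter peak covered chr1:25986237-25986864, a width of 628 bp, with the summit at position 25986513, 164 bp upstream of the annotated start. The fold was 3.91, which is close to the median of the list and ranked 648 of 1177. The reads show the parts of that ratio. At this summit 460 dex reads were counted, rank 16 of 1177, and the mock libraries had 92 reads, the third highest mock background of all nuclear summits. The mock count was 5.12 times the genome-wide floor. After scaling to equal depth, dex over mock was 3.94 (95% exact interval 3.14 to 4.98). The −log10 q-value of 96.4 ranked 113. The promoter of AP1 was therefore among the summits with most reads in the dex pool and among those with most reads in the mock pool, and its fold was near the median. The source of the mock reads was not tested.

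**Figure D2:**
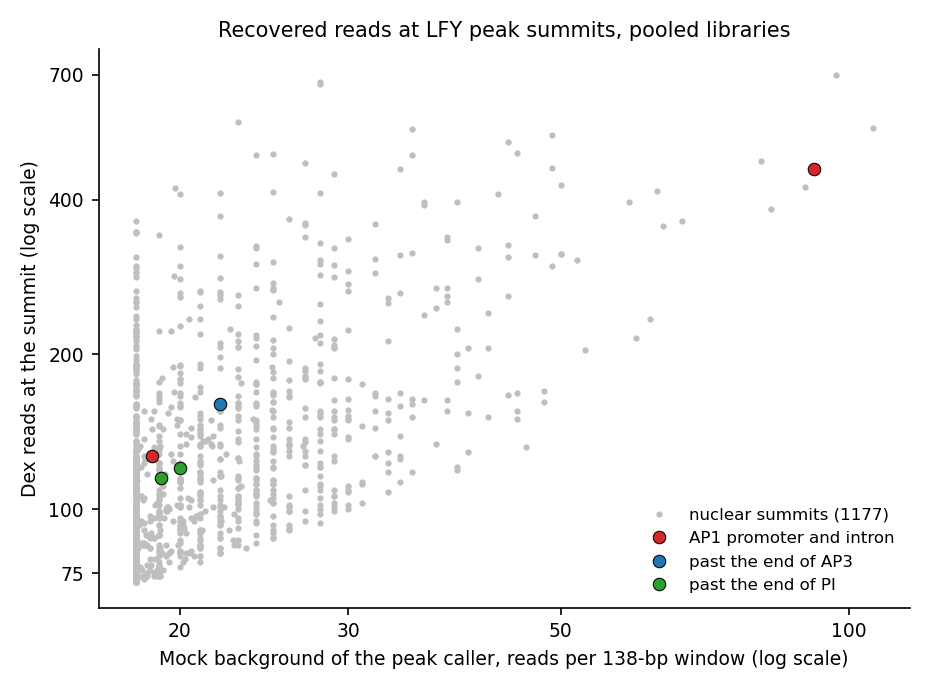
Dex reads at the summit (y axis, log scale) against the mock background used by the caller (x axis, reads per 138-bp window, log scale) for all 1177 nuclear summits in grey. The AP1 promoter (460 dex reads, background 92) lies at the upper right, whereas the AP1 intron (127, 18.7) and the summits past the ends of AP3 (160, 22) and PI (120 and 115) lie among the many summits with a background near its lowest value.

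The centre of the AP1 core lay 5 bp from the promoter summit. The sequence around the summit, on the strand of AP1, is given because it is the one place among the 10 genes where an exact core and a summit meet.
AP1 promoter, chr1:25986453-25986573, minus strand: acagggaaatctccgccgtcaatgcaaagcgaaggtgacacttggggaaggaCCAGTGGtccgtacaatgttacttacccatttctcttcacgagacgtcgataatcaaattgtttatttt
To compare sites that match the core to different degrees, a 19-bp scoring matrix (log2 odds against the base composition, positive values favouring the site) was built from 602 sites at the 1175 nuclear summits outside AP1. The best site within 50 bp of a summit had a median score of 7.45, against 0.927 in windows 1000 bp to either side, where 95% of best sites stayed below 7.66. Since the matrix was built from these summits, that gap is raised by construction, and the AP1 summits were left out of it for this reason. The AP1 promoter site scored 14.7. This ranked 54 among the 1177 summits, and 0 of 2354 windows beside summits reached it.

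The intron peak of AP1 was smaller. It covered chr1:25984802-25985201, a width of 400 bp, with the summit at position 25985015, 1334 bp into the gene. In the transcripts that start at the annotated gene start, this is intron 1 of 7, an intron of 1342 bp. A shorter annotated AP1 transcript begins 78 bp downstream of the summit, so the same position is also just upstream of a start. The summit lay 2959 bp upstream of the neighbouring pseudogene AT1G69110 as well. At the intron summit 127 dex reads were counted, rank 464, and the fold of 5.13 ranked 322. The caller took its background of 18.7 reads per window from the 10 kb around the summit, which includes the promoter peak, so the mock count at the summit itself is known only to be at most 18.

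No exact core lay within 150 bp of the intron summit, and 2 cores with 1 mismatch did, at 14 bp on one side and 37 bp on the other. The better site scored 11.4, rank 259 among summits, a value reached in 0.51% of windows beside summits. It stands in capitals in the sequence around the summit, on the strand of AP1, shown for comparison with the promoter.
AP1 intron, chr1:25984955-25985075, minus strand: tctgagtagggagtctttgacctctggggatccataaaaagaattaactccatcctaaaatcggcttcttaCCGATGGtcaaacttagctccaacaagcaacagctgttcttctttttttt

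The promoter and the intron, whose summits are 1498 bp apart, differed in dex reads. How far they differed in enrichment is not known, since the intron's mock count has only an upper limit. Scaled to the mock depth, the dex pileup was 362.4 at the promoter and 100.1 at the intron. With the intron's mock count at its upper limit of 18, dex over mock at the intron was 5.56 (95% exact interval 3.38 to 9.68), a lower limit. The ratio of the promoter's enrichment to that of the intron was then 0.709 (95% exact interval 0.388 to 1.24; Fisher's exact test, two-sided, p = 0.25), and this compares the pools, not replicated conditions. With 14 mock reads or fewer at the intron the same exact test would give a p-value of 0.0495 or less. Taking the caller's backgrounds as fixed means, without counting error, gave a ratio of 0.736 and passed 0.05 (two-sided exact binomial p = 0.00289). For the intron that mean is the background of the surrounding 10 kb, not a count at the summit. Whether a difference in enrichment is found thus depends on the unknown mock count at the intron and on how the mock error is treated.

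CAL (chr1:9099994-9103644, minus strand), the duplicate of AP1 that acts redundantly with it, had no summit. Its nearest summit lay 71159 bp upstream, at the side of the noncoding gene AT1G26558 and of BGLU40, a beta-glucosidase gene, and 67.7% of protein-coding genes had a summit at least as near. CAL nevertheless shares sequence with both AP1 peaks. In a local alignment of the AP1 promoter peak with CAL and its 3 kb upstream, 286 bases aligned, and 239 of them, or 83.6%, were identical. The aligned part covered the AP1 summit and ended just past the CAL start. For the AP1 intron peak, 116 bases aligned with a stretch in intron 1 of CAL and 81.9% of them were identical. In the other 8 genes the same alignments gave between 14 and 45 bases.

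The best site beside each AP1 summit had an altered core in CAL. The AP1 sites and the 19 unbroken CAL bases centred on the aligned core, which is in capitals, are as follows.
AP1 promoter: gaaggaCCAGTGGtccgta
CAL promoter, chr1:9103889-9103907, minus strand: ctgaagTCTGTGGtctgtg
AP1 intron: ttcttaCCGATGGtcaaac
CAL intron, chr1:9102643-9102661, minus strand: tccgtaCTGATGGtcaaac
Counting from 1 at the 5′ end of the AP1 site, the promoter core differed from AP1 to CAL by C7T and A9T, and CAL had 6 extra bases in the 5′ arm of the alignment, so the 5′ arm shown is not the one aligned with that of AP1. The score of the CAL site as shown was 1.58, against 14.7 for AP1. The intron core differed by C8T, and the score was 6.79, against 11.4. CAL had 24 cores when 1 mismatch was allowed, but its best site of any kind scored 9.15, a value that 69.3% of protein-coding windows reached. This best site lies in the CAL stretch aligned with the AP1 intron peak. Its core, CCTCTGG, is also that of the AP1 site 37 bp from the intron summit, so this second core was not altered in CAL. Reads from either gene could mostly be placed uniquely, since 99.9% of the 50-base words of both the AP1 and the CAL window occurred once in the genome.

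FUL (chr5:24502434-24506269, minus strand) stood farthest from any summit. The nearest was 131856 bp past its end, 174 bp upstream of AT5G60630, and 84.2% of protein-coding genes had a summit at least as near. That distant summit was a strong one, with 303 dex reads against 25 mock reads and a fold of 9.22. FUL holds 2 exact cores of its own. The core in intron 1 scored 11.9, which 6.71% of all exact cores in the genome reached, and lay at −14 bp from the start of the shorter of its 2 annotated transcripts. The core at −1031 bp scored 9.96.

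None of the 4 SEP genes had a summit. Their nearest summits lay 37579 bp (SEP4), 40732 bp (SEP2), 55923 bp (SEP3) and 75584 bp (SEP1) past the gene end. These distances are ordinary, since 47.1% to 69.6% of protein-coding genes had a summit at least as near. SEP3, the member of the family with the broadest part in floral complexes, had a core at −2609 bp with a score of 10.7, and 70 bp from it its best site, with 1 mismatch and a score of 12.5. SEP4 had a core at −248 bp, the one nearest to a gene start after that of AP1. It scored 3.77, under the median of 5.41 for all exact cores in the genome. The cores of SEP1 and SEP2 lay over 2 kb upstream and scored 8.43, 8.5 and 8.07. Of the words of 50 bases in the SEP4 window 96.7% were unique, the lowest share of the 10 genes.

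AG (chr4:10382856-10388539, plus strand) contrasted with AP1 in that a high-scoring core had no summit. The second intron of AG, known as the main regulatory region of the gene, is 2835 or 2999 bp long in the annotated transcripts and holds the AG core at chr4:10386603-10386621. This site scored 14.2, close to the 14.7 of the AP1 promoter. A score as high was reached by 1.69% of exact cores in the genome for AG and by 1.15% for AP1. The AG site nevertheless lay 34785 bp from the nearest summit, which itself was 32858 bp past the gene end, near NLM1, an aquaporin gene. High-scoring cores without a summit were the rule. Of 331 exact cores in the genome that scored as high as the AG site, 33, or 9.97%, lay within 150 bp of a summit, against 0.826% of all 19611 exact cores. The matrix was built from these peaks, so the first share is raised by construction.

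**Figure D3:**
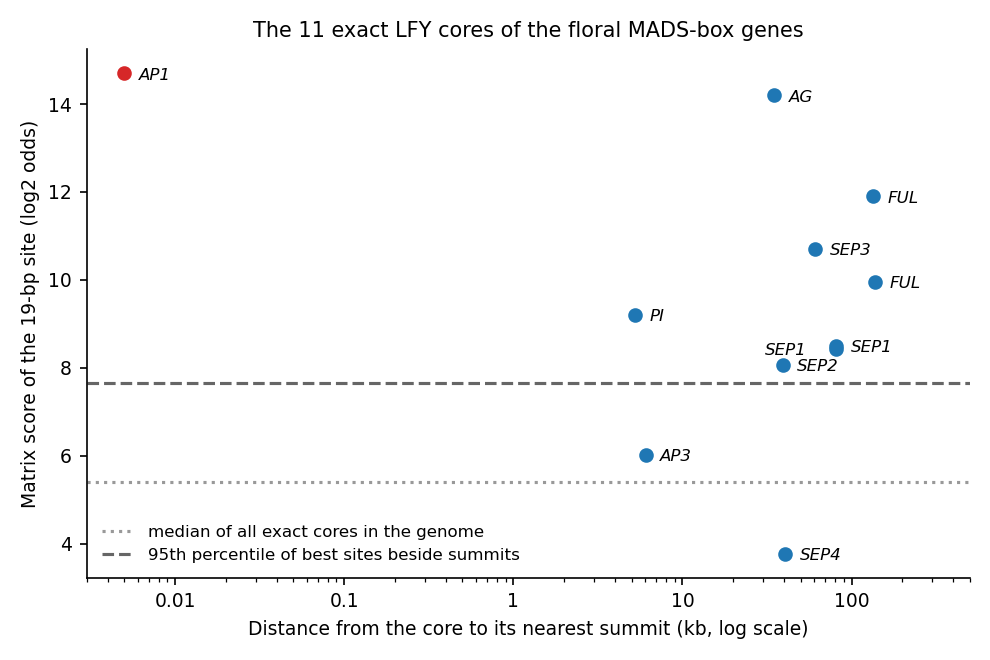
Matrix score (y axis, log2 odds) of the 11 exact cores against the distance to the nearest summit (x axis, kb, log scale). The AP1 site, in red, lies 5 bp from a summit with a score of 14.7, and the AG site reaches 14.2 at 34785 bp. The dotted line is the median of all exact cores in the genome, 5.41, and the dashed line is 7.66, the value that 95% of best sites beside summits stay below.

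The exact cores as a group gave the same picture. Of the 11 cores in the 10 genes, 1 lay within 150 bp of a summit, that of AP1. Among the exact cores in the windows of all protein-coding genes the share was 0.888%. With up to 1 mismatch there were 157 cores in the 10 genes, of which 4 lay within 150 bp of a summit, all of them at AP1, and the share over all protein-coding windows was 0.418%. The best site in the gene and 3 kb upstream had a median score of 10.05 over protein-coding genes. AP1 (14.7), AG (14.2) and AP3 (13.5) were in the upper part of that distribution, with 1.81%, 3.0% and 5.32% of windows as high. PI, SEP4, SEP3 and FUL lay between 11.3 and 12.5, and SEP1, CAL and SEP2 between 8.34 and 9.8.

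AP3 (chr3:20119140-20121314, minus strand) and PI (chr5:6828904-6831515, plus strand), whose proteins act as a pair, both had summits past their 3′ end and none in the gene or upstream. Past AP3 the peak chr3:20116881-20117671 was 791 bp wide, with the summit 1946 bp from the gene end. It had 160 dex reads against 22 mock reads, a scaled ratio of 5.73 (95% exact interval 3.66 to 9.40). This summit lies within WRI1 (AT3G54320), an AP2-type transcription factor gene that activates fatty acid synthesis. No core with up to 1 mismatch was found within 150 bp of it. The best site by the matrix, 6 bp from the summit and with 3 mismatches to the core, scored 10.1. That value was reached in 1.15% of windows beside summits, but this summit was among the 1175 used to build the matrix, which favours its score. The AP3 gene itself has its core at −1937 bp, with a score of 6.02, and its best site, with 2 mismatches to the core, in its last exon, which is coding there.

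Past PI there were 2 summits, at 823 and 1172 bp from the gene end. The nearer one had 120 dex reads against 20 mock reads, a scaled ratio of 4.73 (95% exact interval 2.93 to 8.02). The farther one had 115 dex reads and a fold of 4.56, with a background of 19.1 reads per window from the surrounding 10 kb. Both lie upstream of the next gene, DIN10 (AT5G20250), a dark-induced gene of the raffinose synthase family, at 1226 and 877 bp from its start. The nearer one is also inside the RNA gene AT5G00425, and the farther one is 141 bp upstream of it. By the rule used here they belong to DIN10 and to AT5G00425, and not to PI. The best sites at these summits, which were also among those used to build the matrix, scored 8.61 and 3.11. PI's own core, at −1788 bp, scored 9.21 and lay 5222 bp from the nearer summit. Upstream of PI the nearest summit was at −15271 bp from the start, the closest upstream summit of any of the 9 genes.

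**Figure D4:**
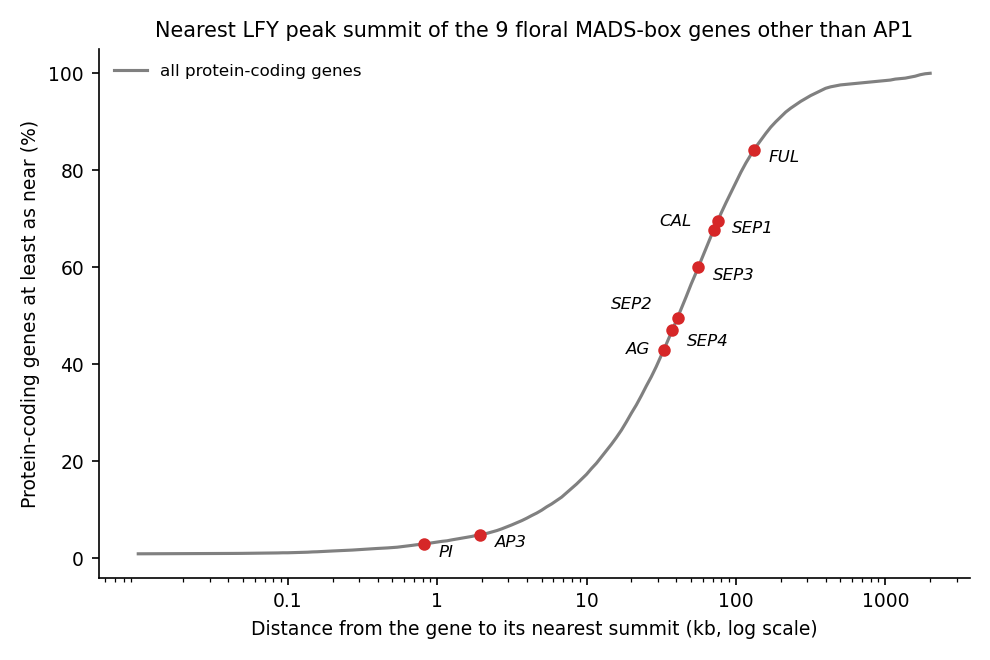
For the 9 genes other than AP1, the distance from the gene to its nearest summit (x axis, kb, log scale) is set on the cumulative distribution over all protein-coding genes (y axis, percent at least as near). PI (2.92%) and AP3 (4.89%) lie at the near end through summits past their 3′ end, and the other 7 genes spread from 42.9% (AG) to 84.2% (FUL).

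Over the 9 genes other than AP1 the median distance to the nearest summit was 40732 bp, and over all protein-coding genes it was 41147 bp. The absence of a summit is set by the list's threshold. At the lowest background the fewest dex reads at any listed summit were 72, a fold of 3.04, and 71 reads would have given a −log10 p-value of 12.2, below the smallest listed value of 12.7. Where the background is higher, more reads but a lower fold can pass, as at the summit nearest SEP2, with 102 dex reads, 30 mock reads and a fold of 2.62. The background at the 9 genes is unknown, and fewer than 72 dex reads at a summit would not have been detectable there. Tissue and reference differ in accession, so cores that differ between Landsberg erecta and Columbia are read with the Columbia base.

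Other MADS-box genes and other floral regulators were taken from 2 lists. Of 18 other MIKC-type MADS-box genes, among them SHP1, SHP2, STK, SOC1, SVP and FLC, 0 had an assigned summit. The list is not the whole family, and GOA and MAF4, MADS-box genes outside it named after their values were seen, did have one. Nearest summits of the 18 genes lay between 6464 bp (TT16, a gene of the seed coat) and 186435 bp (ANR1, a root gene) away, with a median of 48655 bp. Of 8 floral regulators outside the MADS-box family, 0 had a summit, and the median distance was 56276 bp. The nearest of them was AP2, which specifies sepals and petals, at 3204 bp. UFO, the F-box partner of LFY in activating AP3, had its nearest summit 79452 bp away. Both counts of 0 are set against the 4.32% of all protein-coding genes. They hold for the upstream limit of 3 kb, which was not varied for these lists.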

How the data were processed

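The 3 dex and 3 mock ChIP libraries were compared as pools, and the 3 inputs were not used. Reads had been trimmed (Trimmomatic) and mapped to TAIR10 (Bowtie2) by the authors, who kept unique mappings, and MACS2 called peaks with 138-bp extension, automatic duplicate removal and a summit threshold of −log10 q of 10. The labels list Trimmomatic 0.36, Bowtie2 2.3.1, SAMtools 1.7, Picard 2.9.4 and MACS2 2.1.1.20160309. Because libraries were pooled, no error between replicates exists.

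For each peak the authors deposited a fold enrichment, which is a ratio of scaled dex pileup plus 1 to mock background plus 1. The −log10 p-values and −log10 q-values deposited by the authors come from a Poisson test. The deposited score repeats the q-value and was not used, and the deposited summit offset gives the summit. Folds and q-values are the authors' throughout. Dex reads and background were recovered by solving fold and p-value together. Where more than 1 solution passed, one clearly nearer to a whole number of dex reads was kept. This gave 1 solution at all 1181 peaks and the true reads at 100.0% of 325 simulated peaks. The simulation used the same scale, floor and background rule as the solver, so it does not test these. The background is the highest of the summit window, 1 kb, 10 kb and the genome-wide floor. Reads carry no molecular identifiers, so exact 95% (Clopper-Pearson) intervals cover counting error only.

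Genes, transcripts and sequence came from RefSeq TAIR10.1, whose 5 chromosomes share coordinates with TAIR10. Cores were exact matches to CCANTGG, a palindrome searched once for both strands. Local alignments scored matches 2, mismatches -3, gap opening -5 and gap extension -2. Python 3.11.15, scipy 1.17.1 and Biopython 1.88 were used. The AP1 promoter and intron were compared with Fisher's exact test, and with an exact binomial test as an alternative. No other comparison was tested. All 10 members are named, as is any gene of the 2 other lists with a summit. Genes beside a member's nearest summit are named too, except for the SEP genes. Genes named from those lists for their distance, or as examples, were chosen after their values were seen. The members and lists were chosen with earlier results of these data known. The upstream limit, the peak threshold, the distance to a core, mismatches and the background were varied.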

Additional observations from a re-analysis of the deposited data

How the results depend on the processing

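No paired analysis was possible because the libraries were pooled before peaks were called, and for the same reason no replicate could be left out. Of 26 alternatives, 19 left their result on the same side of the threshold or within 1.5 times its value. The number of genes with a summit, 1, stayed 1 with upstream limits of 1, 5 and 10 kb, with any base of the peak counted and at −log10 q of at least 20 or 50. It became 3 when 3 kb past the end were included, which added AP3 and PI (6.61% of protein-coding genes have a summit on that rule), and 0 at −log10 q of at least 100. AP1 kept 2 summits except at −log10 q of at least 50, with 1, and 100, with 0. The median distance of the other 9 genes rose to 131158 bp at −log10 q of at least 50 and was 41304 bp in the other 2 alternatives. The cores within 150 bp of a summit numbered 4 of 157 when 1 mismatch was allowed, and 1 in the other 4 alternatives. The ratio of the AP1 promoter to the AP1 intron was 0.736 with fixed backgrounds (exact binomial test, p = 0.00289), which leaves out the counting error of the mock reads, and 0.762 as the ratio of the deposited folds. Depth limits the list to summits of at least 72 dex reads where the background is at its floor.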

Other observations

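Among 98 genes that RefSeq names as MADS-box or AGAMOUS-like genes, a list chosen after the peaks were seen and which does not hold AP3 or PI, 3 had a summit in the gene or 3 kb upstream: AP1, GOA (AT1G31140) and MAF4 (AT5G65070). Of all protein-coding genes 4.32% had one. GOA, a relative of the B-class genes that is known for its role in fruit growth, had 169 dex reads against 25 mock reads (fold 5.16) at a summit 981 bp upstream. MAF4, a relative of the flowering repressor FLC, had 215 dex reads against 60 mock reads (fold 2.79) at a summit 160 bp upstream. MAF4 lies in a cluster of related genes, and the same summit lay within 3 kb past the end of MAF3.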
